A study of Mus musculus with 18 samples.

Results

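The Dync2h1 knockout was set against wild type in static culture, in IMCD3, an epithelial cell line grown out of mouse inner medullary collecting duct, the last stretch of the kidney tubule. Both groups came from the background labelled Tg(SV40E)bri/7, were grown in DMEM/F-12 with serum to passage 10 to 15, and were held for 3 h at 37 C in microslide chambers without flow. Each group holds 3 libraries of total RNA, 6 of the 18 in the series. The other 12 libraries are the Dync2h1 knockout and wild type under flow of 0.7 dyne/cm2 for 3 h, and an Ift140 knockout line in static culture and under flow. The labels do not say how many clones stand for a knockout, nor whether replicates were separate cultures. The p-values therefore measure only the spread between libraries within groups, pooled over all 18 libraries of the series.

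A gene was kept where 3 or more of the 6 libraries reached 1 TPM, which left 15374 of the 49845 gene names. TPM give the share of a gene in the transcripts of a library, corrected for its length and brought to a fixed total. They keep no depth, so the depth of the libraries is unknown and no counting interval can be given. Values below are TPM rescaled between libraries by a trimmed mean of ratios, and a change is a difference of log2(TPM + 1) with its SE from limma. A log2 change of 1 is a doubling for a gene well above 1 TPM, and the added 1 TPM makes the change of low genes come out smaller. A gene passed, and is said to have risen or fallen, where its p adjusted over all 15374 genes by Benjamini-Hochberg was under 0.05.

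The primary cilium is a single antenna-like projection that most kidney tubule cells carry, built around microtubules and kept up by intraflagellar transport. Kinesin-2 motors carry IFT-B trains from the base to the tip, and dynein-2, whose heavy chain is encoded by Dync2h1, carries them back with IFT-A. Cilia of collecting duct cells hold the polycystins, and the cilium is also where Hedgehog signals are read in vertebrates. The comparison in static culture asks how cells without full dynein-2 differ from wild type when no flow is applied.

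The 6 libraries held between 15028 and 15315 genes at 1 TPM or more. Correlations of log2 values were 0.982 to 0.986 between libraries of the same group and 0.946 to 0.956 between groups. The first principal component, which separated the groups, held 64.6% of the variance. Dync2h1 (chr9:6928503-7184446, minus strand, GRCm38) stood at 15, 9.53 and 15.4 TPM in the Dync2h1 knockout libraries and at 40.2, 45.3 and 33.6 TPM in the wild-type libraries, a change of -1.53 (SE 0.21, adjusted p = 5.33e-05). The knockout values lay below all wild-type values, and RNA of the gene was still counted in each knockout library. Other protein-coding genes that start in the first 15 Mb of chromosome 9 were lower too, with a median change of -0.99. How much of the fall of Dync2h1 goes with theirs was not tested. Ift140, the gene targeted in the other line, stood at 14.9, 14.1 and 18.3 TPM in the Dync2h1 knockout and at 16.4, 19.4 and 18.7 TPM in wild type and did not pass (adjusted p = 0.493).

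Of the 15374 genes, 2261 rose in the Dync2h1 knockout and 2330 fell, which is 14.7% and 15.2%, or 29.9% together. At least a 2-fold change was seen in 339 of those that rose and 470 of those that fell. These shares are the background for every count of a gene group below. In the 61 gene lists read, 195 of 895 expressed genes rose and 211 fell. Together 406 of the 895 passed, a larger share than over all genes. The lists were chosen with earlier results of these data known, and a share somewhat above the background is usual among them. The median change over all genes was -0.0082. Values of the knockout and wild-type libraries did not overlap in 3726 genes that were higher in the knockout and in 3918 that were lower, or 24.2% and 25.5% of the genes. Lower values were unevenly placed in the genome, with 48.1% of the genes of chromosome 1, 48.3% of chromosome 6 and 33.2% of chromosome 5 fallen among those whose mean reached 5 TPM, and most of those close to Dync2h1 on chromosome 9. These are called the shifted regions, and for many of the groups with members there the count without them is given too. In bulk RNA, fewer cells of a kind and less RNA per cell cannot be told apart. All genes named below as risen or fallen had knockout and wild-type libraries that did not overlap, which the rule for naming required of the largest changes.

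The largest rise was that of Ap1m2 (chr9:21294275-21312337), which encodes the mu subunit of the AP-1B clathrin adaptor, the epithelial adaptor that sorts proteins to the basolateral membrane. It stood at 75.7, 80.8 and 71.1 TPM in the Dync2h1 knockout and at 0, 0 and 0.0488 TPM in wild type, a change of 6.24 (adjusted p = 1.22e-14). It was thus well expressed in each knockout library and at or near 0 in each wild-type library. Ripk3, a kinase of necroptosis, was at 14.2, 12.1 and 10.8 TPM in the knockout and at 0.497, 0 and 0.127 TPM in wild type (3.48). Rasef, a Rab-like GTPase with EF-hands, was at 5.7, 5.01 and 4.95 TPM in the knockout and at 0.0207, 0.00964 and 0.117 TPM in wild type (2.57). Prkcdbp, which encodes the caveolar protein cavin-3, was at 5.18, 6.76 and 5.24 TPM in the knockout and is listed at 0 in all wild-type libraries (adjusted p = 2.30e-10). Ap1m2, Ripk3, Rasef and Prkcdbp share the pattern of a gene near 0 in wild type and present in the knockout.

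Other leading rises were of genes that wild type also expressed. Ccnd1, the cyclin D1 gene, stood at 78.1, 84.7 and 79 TPM in the Dync2h1 knockout and at 10.5, 10.1 and 10.1 TPM in wild type, a change of 2.86 (SE 0.07). Prss22, a tryptase-like serine protease, stood at 36.2, 38.6 and 33.2 TPM in the knockout and at 3.38, 3.87 and 5.13 TPM in wild type (2.86). Rab25, a small GTPase of apical recycling in epithelia, stood at 42.9, 54.6 and 52.2 TPM in the knockout and at 6.57, 10.1 and 10.7 TPM in wild type (2.35). The libraries of each group were close together in these genes and the gap between groups was several times their spread. Apln, the ligand of the apelin receptor, changed by 2.70, Procr, the endothelial protein C receptor, by 2.31, Timp3, an inhibitor of metalloproteases, by 2.27, and Plekhs1 by 2.39. Rsad2, an interferon-stimulated gene, changed by 2.73 and is described with its group. Sap18 changed by 2.48, but near-identical copies of it exist in the mouse genome and its values are uncertain. The microRNA host entry Mir1199, at 8.62, 8.18 and 8.28 TPM in the knockout and 1.17, 0 and 2.41 TPM in wild type, changed by 2.26. Ctf2 was at 9.6, 3.07 and 11.3 TPM in the knockout and 2.19, 0.0385 and 0.107 TPM in wild type, with adjusted p = 0.0204, and its call was lost without knockout replicate 1 (adjusted p = 0.068), knockout replicate 3 (0.0787), wild-type replicate 2 (0.0794) or wild-type replicate 3 (0.0721).

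**Figure D1:**
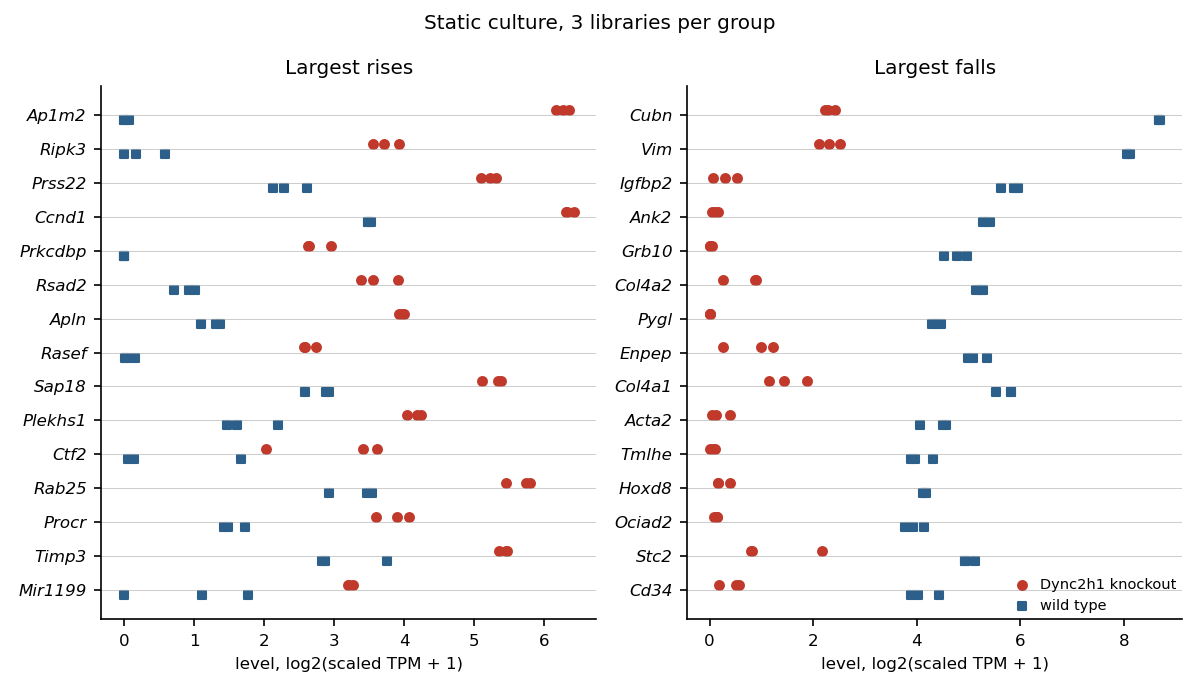
Level of the 15 genes with the largest rises (left) and the 15 with the largest falls (right) as log2(scaled TPM + 1), with 1 circle per Dync2h1 knockout library and 1 square per wild-type library in static culture, n = 3 each. Ap1m2 was at 71.1 to 80.8 TPM in the knockout and at or near 0 in wild type, and Cubn and Vim show the reverse order.

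Among genes with a name other than a clone's, the largest fall was that of Cubn (chr2:13276338-13491813, minus strand), which encodes cubilin, an endocytic receptor of the proximal tubule. It stood at 3.69, 3.88 and 4.33 TPM in the Dync2h1 knockout and at 406, 408 and 411 TPM in wild type, a change of -6.37 (SE 0.16, adjusted p = 1.76e-13). Vim (chr2:13573927-13582826, plus strand), the gene of the intermediate filament protein vimentin, lies next but one to Cubn on chromosome 2. It stood at 3.35, 4.76 and 3.92 TPM in the knockout and at 266, 270.4 and 277 TPM in wild type, a change of -5.77 (adjusted p = 1.22e-14). Both genes were abundant in every wild-type library and under 5 TPM in every knockout library. The gene between them, Trdmt1, changed by -0.16 and did not pass (adjusted p = 0.708), and Rsu1, on the other side of Cubn, changed by -0.48 (adjusted p = 0.0132).

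Several further genes were expressed in wild type and near 0 in the Dync2h1 knockout. Igfbp2, a binding protein of insulin-like growth factors on chromosome 1, stood at 0.222, 0.0504 and 0.445 TPM in the knockout and at 60.6, 48.4 and 57.9 TPM in wild type (-5.52). Ank2, the ankyrin-B gene, stood at 0.0317, 0.0807 and 0.111 TPM in the knockout and at 41.5, 38.1 and 38.5 TPM in wild type (-5.23). Grb10, an imprinted gene for an adaptor that dampens insulin receptor signals, stood at 0.0106, 0.0101 and 0.0278 TPM in the knockout and at 22.1, 30.4 and 26.3 TPM in wild type (-4.74). These genes were lost to a level near 0 in all knockout libraries alike. Pygl, the liver glycogen phosphorylase, is listed at 0 in all knockout libraries and was at 18.6, 21.1 and 19.8 TPM in wild type (adjusted p = 6.53e-12). Enpep, the aminopeptidase A of the brush border, changed by -4.32, Acta2, the smooth muscle actin gene, by -4.19, and Hoxd8, a homeobox gene, by -3.91. Stc2, a secreted glycoprotein gene, changed by -3.73, Ociad2 on chromosome 5 by -3.82, and Cd34 on chromosome 1, a sialomucin gene, by -3.70. Tmlhe, an enzyme of carnitine synthesis, was at 0, 0.0403 and 0.0742 TPM in the knockout and at 18.8, 13.8 and 14.6 TPM in wild type.

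By the rule of all knockout libraries under 0.5 TPM and a wild-type mean of at least 5 TPM, 29 genes were near 0 in the Dync2h1 knockout. Of these, 22 carry gene names rather than clone or predicted-gene names. Some of the other names repeat the same values in every Dync2h1 knockout and wild-type library, so the 29 are not all separate signals. These pairs are AC099934.2 and AC157822.2, Gm27288 and Gm27529, and Gm11508 and RP23-16C4.1. Under the same rule with the groups exchanged, 5 genes were near 0 in wild type, 4 of them named, which are Ap1m2, Ripk3, Prkcdbp and Rasef. Beside the genes already given, the genes near 0 in the knockout include Lama1, Gnai1, Kif21b, Arnt2, Htatip2, Twist1, Pmp22, Ctsf and Foxred2. These names were picked for mention after their values were seen. Gnai1, a G protein subunit gene, stood at 0.137, 0.494 and 0.232 TPM in the knockout and at 8.76, 6.37 and 7.51 TPM in wild type. Kif21b, a kinesin gene, stood at 0.0317, 0.0706 and 0.0278 TPM in the knockout and at 6.23, 5.08 and 6.4 TPM in wild type. Acot1 is among the 22 and shares much of its sequence with its neighbours, so its values are uncertain. Of the 29 genes, 24 were also under 0.5 TPM in all knockout libraries under flow. All 5 genes near 0 in wild type were also under 0.5 TPM in all wild-type libraries under flow. The mean of 5 TPM in the other group was not asked for there. Prkcdbp, at 2.64, 3.18 and 2.78 TPM in the knockout under flow, was below it.

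Epithelial genes were among those that rose. Of 20 expressed members of the list of epithelial regulators, 10 rose and 2 fell, with a median change of 0.35. Esrp1, a splicing factor of epithelial isoforms, stood at 55.8, 53.4 and 48.8 TPM in the Dync2h1 knockout and at 30.2, 29.3 and 27.9 TPM in wild type, a change of 0.83 (SE 0.12, adjusted p = 6.31e-05). Epcam, an epithelial adhesion molecule, stood at 357, 386 and 388 TPM in the knockout and at 184, 175 and 218 TPM in wild type (0.97). Cdh1, the E-cadherin gene, stood at 60.2, 57.4 and 81.1 TPM in the knockout and at 26.8, 37 and 33.7 TPM in wild type (1.00). Each of these genes was already expressed in wild type and was higher in all knockout libraries. Ovol1, a repressor of the mesenchymal state, changed by 0.72. The 2 falls were fewer in other fits, with 1 fall left without knockout replicate 2, wild-type replicate 1 or wild-type replicate 2, none without knockout replicate 3 or wild-type replicate 3, and none after each chromosome's own median was taken out.

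Tight junction genes moved the same way. Of 22 expressed members, 9 rose and 1 fell (median 0.22). Ocln, the occludin gene, stood at 57.6, 58.5 and 63.4 TPM in the Dync2h1 knockout and at 31.9, 30.2 and 31.3 TPM in wild type (0.92). Cldn7 stood at 147, 142 and 163 TPM in the knockout and at 77.4, 80.7 and 88.3 TPM in wild type (0.87), and Cldn4 at 249.6, 274 and 249 TPM in the knockout and 154, 154 and 154 TPM in wild type (0.74). Both encode claudins, the strand-forming proteins of tight junctions, and Cldn4 and Cldn3 (0.71), which rose, lie on chromosome 5. The member that fell was Jam3, a junctional adhesion molecule, at 0.296, 0.181 and 0.529 TPM in the knockout and 3.96, 4.17 and 3.23 TPM in wild type (-1.85). Among 16 expressed adherens junction and desmosome genes, 6 rose and 1 fell (median 0.12), with Perp, a desmosomal membrane protein (0.64), Pkp3, a plakophilin (0.57), and Nectin2 (0.39) higher and Cdh6, a cadherin of kidney epithelium (45.8, 39 and 49.1 TPM in the knockout, 101, 110.5 and 117 TPM in wild type), lower.

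Of 21 expressed genes of polarized sorting, 6 rose and 3 fell, and their median was -0.08. The members that rose include the apical sorting genes Mal2, at 154, 161 and 146 TPM in the knockout and 60.0, 55.6 and 58.8 TPM in wild type (1.39), and Mal, at 385, 427 and 412 TPM in the knockout and 192, 174 and 185 TPM in wild type (1.15), together with Ap1m2, Rab25 and Rab17 (0.75), an epithelial Rab GTPase.

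The list of mesenchymal regulators and markers held 16 expressed genes, of which 3 rose and 11 fell, with a median of -1.13. Apart from Vim, Ncam1, a neural cell adhesion molecule, stood at 0.581, 0.413 and 0.575 TPM in the Dync2h1 knockout and at 12.1, 15 and 14.7 TPM in wild type (-3.29). Twist1, a transcription factor of the mesenchymal state, stood at 0.127, 0.161 and 0.121 TPM in the knockout and at 5.44, 5.11 and 5.62 TPM in wild type (-2.49). Zeb1, a repressor of E-cadherin, stood at 1.25, 0.746 and 0.325 TPM in the knockout and at 7.06, 6.55 and 6.07 TPM in wild type (-2.12). Col5a1, a fibrillar collagen gene, changed by -2.28. Of these, Vim was among the abundant genes of wild-type cells, and the transcription factors were at a few TPM. The 3 rises became 1 without knockout replicate 3 or wild-type replicate 3.

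Among 12 expressed genes of keratins, vimentin, nestin and lamins, 5 rose and 3 fell, with a median of 0.01 that turned to -0.09 with quantile normalisation, to -0.02 after each chromosome's own median had been taken out and to -0.01 with the shifted regions left out. Krt7, a keratin of simple epithelia, stood at 457, 481 and 455 TPM in the Dync2h1 knockout and at 302, 319.7 and 303 TPM in wild type (0.59). Krt18 stood at 845, 881 and 891 TPM in the knockout and at 653, 624 and 661 TPM in wild type (0.43), a call that was lost with quantile normalisation. The simple keratins were thus somewhat higher and vimentin nearly absent in the same libraries. Only 3 of the 5 rises were left without wild-type replicate 2, without wild-type replicate 3, with the deposited scaling or with quantile normalisation.

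Endocytic receptor and adaptor genes, with 18 expressed members, held 1 rise and 7 falls (median -0.13). Lrp2, which encodes megalin, the partner of cubilin in protein uptake, stood at 4.21, 4.3 and 4.88 TPM in the Dync2h1 knockout and at 24, 20.9 and 20.4 TPM in wild type (-2.06, SE 0.17, adjusted p = 2.50e-07). Dab2, the adaptor that links megalin to clathrin, stood at 6.84, 6.27 and 5.61 TPM in the knockout and at 15.5, 15.3 and 17 TPM in wild type (-1.23). Cubn, Lrp2 and Dab2, which act together in receptor-mediated uptake in the proximal tubule, were all lower. Picalm, a clathrin assembly protein, changed by -0.53, and Scarb2, a lysosomal receptor gene on chromosome 5, by -0.83.

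The basement membrane list held 26 expressed genes, of which 3 rose and 10 fell (median -0.26). Col4a1 and Col4a2 encode the chains of the most common collagen IV and lie next to each other on opposite strands of chromosome 8. Col4a1 stood at 1.71, 2.66 and 1.22 TPM in the Dync2h1 knockout and at 55.7, 55.5 and 45.5 TPM in wild type (-4.24, SE 0.17, adjusted p = 1.05e-10). Col4a2 stood at 0.834, 0.192 and 0.863 TPM in the knockout and at 34.2, 38 and 37.5 TPM in wild type (-4.55, SE 0.20, adjusted p = 2.30e-10). Both chains were nearly absent from all knockout libraries. The sequences are shown because these 2 genes, which fell together, have starts close to each other. They are the RefSeq windows on GRCm38.p6 from 250 bases before to 50 after each annotated start, Col4a1 at chr8:11312777-11313076 on the minus strand and Col4a2 at chr8:11312555-11312854 on the plus strand, each read 5′ to 3′ along its own gene with no letters in capitals. The annotated start of Col4a2 lies just inside Col4a1, and the windows overlap by 78 bases.
Col4a1: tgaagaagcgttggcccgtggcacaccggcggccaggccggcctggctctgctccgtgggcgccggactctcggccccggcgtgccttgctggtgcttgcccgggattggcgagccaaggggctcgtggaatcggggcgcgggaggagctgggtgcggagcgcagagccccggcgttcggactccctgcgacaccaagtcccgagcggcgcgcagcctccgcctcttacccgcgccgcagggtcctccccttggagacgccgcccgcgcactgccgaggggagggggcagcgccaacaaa
Col4a2: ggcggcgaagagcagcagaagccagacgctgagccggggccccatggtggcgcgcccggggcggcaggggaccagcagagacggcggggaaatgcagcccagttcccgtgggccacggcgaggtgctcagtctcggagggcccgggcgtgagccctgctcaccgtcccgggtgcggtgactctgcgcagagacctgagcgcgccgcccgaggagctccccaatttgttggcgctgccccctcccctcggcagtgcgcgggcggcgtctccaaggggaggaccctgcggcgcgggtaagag

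Other basement membrane genes fell as well, though 3 of the 26 rose and 13 did not pass. The whole list summed to 2740, 2890 and 3320 deposited TPM in the Dync2h1 knockout and to 2950, 3280 and 3230 in wild type. Nid2, the nidogen-2 gene, stood at 3.21, 4.52 and 3.44 TPM in the Dync2h1 knockout and at 31, 30.4 and 30.8 TPM in wild type (-2.76). Lama1, a laminin alpha chain gene, stood at 0, 0 and 0.288 TPM in the knockout and at 13.3, 15.1 and 10.3 TPM in wild type (-3.66). Serpinh1, the collagen chaperone of the endoplasmic reticulum, stood at 58.7, 64.7 and 58 TPM in the knockout and at 115, 108 and 119.8 TPM in wild type (-0.91). The loss was thus near complete for Lama1 and partial for Nid2 and Serpinh1. Of 14 expressed integrin genes, 3 rose and 5 fell. Itga3, whose protein binds laminin, stood at 491, 483 and 508 TPM in the knockout and at 212, 219 and 246 TPM in wild type (1.13), and Itgb6, an epithelial integrin, at 53.2, 52.8 and 51.5 TPM in the knockout and 18.9, 24.1 and 22.4 TPM in wild type (1.24). Itga1, whose protein binds collagen, was lower, at 8.42, 8.46 and 8.02 TPM in the knockout and 24.1, 32.5 and 24.5 TPM in wild type (-1.58), as was Itgb5 (-0.60), and Itga9 is listed at 0 in the knockout and stood at 2.34, 1.88 and 1.17 TPM in wild type.

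Matrix remodelling genes held 8 rises and 1 fall among 13 expressed members (median 0.61). Plau, the urokinase gene, stood at 243, 259 and 272 TPM in the Dync2h1 knockout and at 63, 61.6 and 76.7 TPM in wild type (1.93). Plat, the tissue plasminogen activator gene, averaged 311 ± 13.2 TPM in the knockout and 178 ± 11.5 TPM in wild type (SD, n = 3 each), a change of 0.80. Both plasminogen activators were thus higher in all knockout libraries. Adamts1, a secreted metalloprotease, was lower, at 343, 372 and 374 TPM in the knockout and 541, 569 and 532 TPM in wild type (-0.59), and leaving out knockout replicate 2 or wild-type replicate 1 gave 2 falls in this list.

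**Figure D2:**
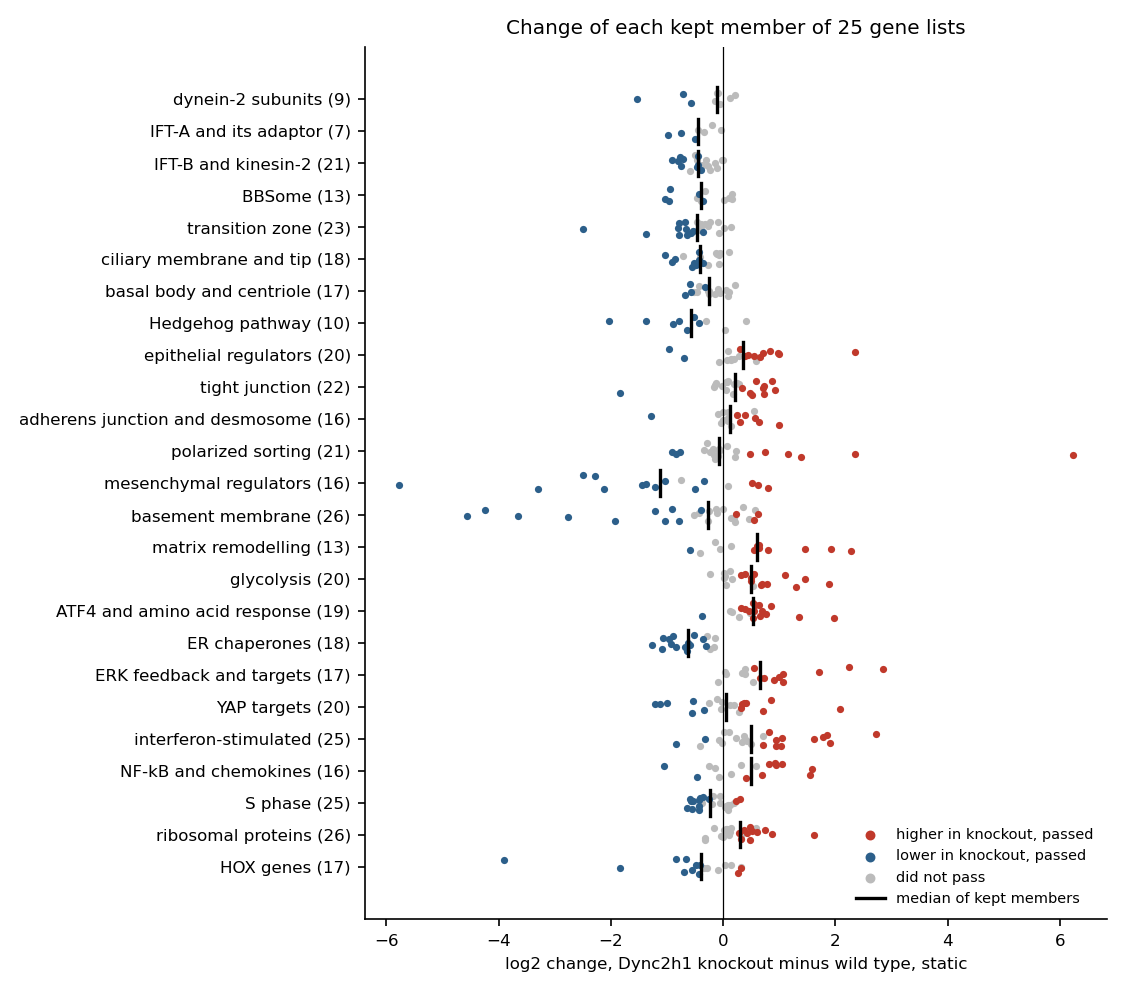
Log2 change, Dync2h1 knockout minus wild type in static culture, of each expressed member of 25 gene lists, 1 point per gene, coloured by whether the gene was higher and passed, lower and passed, or did not pass. Vertical bars mark the median of the expressed members, whose number stands in brackets, and run from -1.13 for mesenchymal regulators to 0.66 for ERK genes.

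Genes of the cilium itself fell or did not pass. None of the expressed members of the 7 cilium lists rose, while 14.7% of all genes did. Of 9 expressed dynein-2 subunit genes, 3 fell, one of them Dync2h1, and their median was -0.11. Wdr60, an intermediate chain gene, stood at 10.4, 8.88 and 8.4 TPM in the Dync2h1 knockout and at 17.3, 11 and 14.8 TPM in wild type (adjusted p = 0.0138), and Dync2li1, the light intermediate chain gene, at 11.3, 10.6 and 13.9 TPM in the knockout and 18.4, 21.2 and 20.9 TPM in wild type (adjusted p = 0.0145). The call of Wdr60 was lost without knockout replicate 3 (adjusted p = 0.0563) or wild-type replicate 1 (0.0785), and that of Dync2li1 without knockout replicate 2 (0.0597). Of 7 IFT-A genes, 3 fell (median -0.44), namely Wdr19 (22.2, 26.3 and 27.4 TPM in the knockout, 46.1, 51.8 and 54.4 TPM in wild type), Ift122 (-0.74) and Wdr35 (-0.50), of which Wdr19 on chromosome 5 and Ift122 on chromosome 6 lie in the shifted regions. Ift140 itself, also a subunit of IFT-A, did not pass.

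Of 21 expressed IFT-B and kinesin-2 genes, 9 fell, with a median of -0.45. Ift80, an IFT-B subunit gene, stood at 28.4, 29.4 and 31.2 TPM in the Dync2h1 knockout and at 57.9, 47.4 and 52 TPM in wild type (-0.80, SE 0.13, adjusted p = 1.76e-04). Kifap3, the adaptor subunit of kinesin-2, on chromosome 1, stood at 15.4, 16.2 and 20.6 TPM in the knockout and at 35.6, 32.5 and 32.3 TPM in wild type (-0.92), and Ift22, an IFT-B gene on chromosome 5, changed by -0.45. Of the 21 genes, 6 lie in the shifted regions, where 4 fell. With those regions left out of the fit, 6 of the other 15 fell.

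The BBSome carries membrane proteins out of the cilium. Of its 13 genes and partners, 5 fell and none rose (median -0.40), and none of them lies in the shifted regions. Bbs2 stood at 8.54, 7.65 and 9.54 TPM in the Dync2h1 knockout and at 17.6, 19.6 and 18.2 TPM in wild type (-1.03, SE 0.14, adjusted p = 4.50e-05), Ttc8 at 24.4, 17.2 and 15.4 TPM in the knockout and 44, 36.2 and 31.3 TPM in wild type (-0.95), and Bbs7 at 10.4, 6.17 and 8.31 TPM in the knockout and 15.5, 18.5 and 16.6 TPM in wild type (-0.96). The other 2 falls were smaller, and the count was 3 without knockout replicate 1, knockout replicate 2, wild-type replicate 1 or wild-type replicate 2, and with quantile normalisation.

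The transition zone is the gate at the base of the cilium. Of its 23 expressed genes, 11 fell (median -0.47), and with the shifted regions left out 8 of 19 fell. Ahi1, the gene of jouberin, stood at 1.05, 0.756 and 0.956 TPM in the Dync2h1 knockout and at 9.66, 10.7 and 8.97 TPM in wild type, a change of -2.49 (SE 0.16, adjusted p = 2.29e-08). Cc2d2a, on chromosome 5, stood at 12.1, 12.5 and 16.7 TPM in the knockout and at 39.6, 37 and 34.6 TPM in wild type (-1.38). Ahi1 was near 1 TPM in all knockout libraries, while Cc2d2a kept an appreciable level. Rpgrip1l, a scaffold of the zone, changed by -0.80, Tctn1, a tectonic on chromosome 5, by -0.79, and Tmem237 on chromosome 1 by -0.78.

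Of 18 expressed genes for proteins of the ciliary membrane and tip, 9 fell (median -0.42), 6 of them in the shifted regions. With these regions left out 3 of 11 fell (median -0.14), and 5 of 18 fell after each chromosome's own median had been taken out. Arl13b, a ciliary GTPase on chromosome 16, stood at 15.3, 14.5 and 16 TPM in the Dync2h1 knockout and at 29.5, 27.9 and 28.6 TPM in wild type (-0.86, SE 0.09, adjusted p = 2.35e-06). Pkhd1, the fibrocystin gene of recessive polycystic kidney disease, on chromosome 1, stood at 166, 161 and 161 TPM in the knockout and at 339.9, 344 and 325 TPM in wild type (-1.04). Cys1, the cystin gene, on chromosome 12, changed by -0.91, and Unc119b, a carrier of lipid-modified cargo, on chromosome 5, by -0.48. Among 17 basal body genes 4 fell (median -0.25), with Cep135 on chromosome 5 (-0.68) and Sclt1 on chromosome 3 (-0.58) having the smallest p, and 2 fell without wild-type replicate 2. In the cyst and mechanosensor list, 3 of 16 expressed genes rose and 5 fell, 4 of these falls being in the shifted regions, and 2 of 9 rose and 1 fell with those regions left out. Leaving out knockout replicate 2, wild-type replicate 1 or wild-type replicate 2 gave 1 rise. Panx1, a channel that releases ATP, lies near Dync2h1 on chromosome 9, is listed at 0 in the knockout and stood at 7.2, 7.21 and 5.44 TPM in wild type. Nt5e, which degrades extracellular AMP, changed by -1.21, and P2rx4, an ATP receptor on chromosome 5, by -0.87.

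Of 10 expressed Hedgehog pathway genes, 7 fell and none rose, with a median of -0.58. Smo, the transducer on chromosome 6, stood at 73.1, 77.2 and 74.9 TPM in the Dync2h1 knockout and at 124, 129.7 and 134 TPM in wild type (-0.78, SE 0.07, adjusted p = 8.54e-07). The coreceptor genes Cdon and Gas1 lie outside the shifted regions. Cdon stood at 13.6, 15.1 and 16.3 TPM in the knockout and at 35.9, 44.1 and 41.9 TPM in wild type (-1.38), and Gas1 at 0.116, 0.121 and 0.13 TPM in the knockout and 3.45, 3.7 and 3.55 TPM in wild type (-2.02). The list held 4 genes in the shifted regions, all of which fell, and with these left out 3 of 6 fell. After each chromosome's own median had been taken out, 4 of the 10 fell.

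Among 12 expressed Notch genes, 3 rose and 4 fell, and the ligands moved apart. Jag2 stood at 65.9, 54.5 and 69.9 TPM in the Dync2h1 knockout and at 14.5, 15.9 and 17.6 TPM in wild type (1.92), while Jag1 stood at 38.1, 29.9 and 38 TPM in the knockout and at 75.9, 71.3 and 87 TPM in wild type (-1.12). Hes1, a target gene of Notch, was lower, at 33.7, 32.3 and 33.1 TPM in the knockout and 51.9, 54.6 and 53.2 TPM in wild type (-0.67), whereas Nrarp, also a target, was higher (0.65). Lfng, a glycosyltransferase that modifies Notch, on chromosome 5, changed by -1.23.

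Of 20 expressed WNT genes, 2 rose and 7 fell (median -0.10), and with the shifted regions left out none of 14 rose and 4 fell. Lgr4, a receptor for R-spondins, stood at 72.6, 66.9 and 64.6 TPM in the Dync2h1 knockout and at 237, 221 and 229 TPM in wild type (-1.74, SE 0.09, adjusted p = 1.36e-09). Dkk3, a secreted modulator, stood at 11.6, 8.24 and 9.78 TPM in the knockout and at 25.1, 25 and 28.1 TPM in wild type (-1.33), and Wnt7a, a ligand, at 21.4, 23.4 and 21.5 TPM in the knockout and 13.3, 12.9 and 11.8 TPM in wild type (0.76). The second of the 2 rises was lost without any one of knockout replicate 1, knockout replicate 2 and the wild-type libraries. In the TGF-beta and BMP list, 5 of 22 expressed genes rose and 5 fell (median -0.11). Bmp4 stood at 1.45, 1.44 and 1.43 TPM in the knockout and at 6.37, 5.75 and 5.76 TPM in wild type (-1.51), and Bmp2 at 2.62, 2.4 and 2.28 TPM in the knockout and 0.643, 0.463 and 0.596 TPM in wild type (1.13). These related BMP ligands changed in opposite directions, from low levels. Tgfb3, a TGF-beta ligand, changed by -1.96, and Tgfbr3, its coreceptor, on chromosome 5, by -2.44.

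Glycolysis genes rose in the Dync2h1 knockout, 12 of 20, and none fell (median 0.50). Slc16a3, the lactate exporter MCT4, stood at 85.2, 87 and 95.1 TPM in the knockout and at 23.1, 23.3 and 23.6 TPM in wild type (1.89, SE 0.08, adjusted p = 1.30e-10). Slc2a1, the glucose transporter GLUT1, stood at 340.4, 339.6 and 349 TPM in the knockout and at 143, 133 and 139.6 TPM in wild type (1.30). Ldha, lactate dehydrogenase A, stood at 929, 841 and 874 TPM in the knockout and at 517, 530.2 and 497 TPM in wild type (0.77). Glucose entry, lactate formation and lactate export were therefore each represented among the rises. Aldoc, an aldolase, changed by 1.46, and Hk2, a hexokinase on chromosome 6, by 1.10. With the deposited scaling or with quantile normalisation 1 member fell.

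Of 18 expressed HIF targets outside glycolysis, 8 rose and 4 fell (median 0.16). Vegfa, the vascular growth factor gene, stood at 57.3, 55.9 and 54.7 TPM in the Dync2h1 knockout and at 32.1, 35.3 and 28.2 TPM in wild type (0.80). Higd1a, a mitochondrial gene induced in hypoxia, stood at 108, 99.3 and 113 TPM in the knockout and at 57.1, 47.6 and 44.4 TPM in wild type (1.09), and Ero1l, an ER oxidase gene, changed by 0.96. Egln3, a prolyl hydroxylase that acts on HIF and is itself a HIF target, was lower, at 2.66, 3.2 and 3.1 TPM in the knockout and 7.13, 6.76 and 6.15 TPM in wild type (-0.95), as was Stc2.

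Lipid genes were mixed. Of 16 expressed genes of fatty acid synthesis and storage, 3 rose and 3 fell. Scd1, a fatty acid desaturase, stood at 46.1, 49.6 and 50.6 TPM in the Dync2h1 knockout and at 21.9, 24.6 and 23.8 TPM in wild type (1.02), Plin2, a lipid droplet coat gene, changed by 0.65 and Fabp5, a fatty acid binding protein, by 0.80. Cpt1a, the gate of mitochondrial fatty acid oxidation, was lower, at 15.9, 12.1 and 17.4 TPM in the knockout and 34.2, 29.9 and 31.6 TPM in wild type (-1.04), as was Acsl1 (-0.56). Of 24 cholesterol synthesis genes, 4 rose and 2 fell, with 2 rises left without knockout replicate 2 or 3 or any one wild-type library, and 1 fall left without any one library other than wild-type replicate 1. Mvk, mevalonate kinase, on chromosome 5, changed by -0.82.

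The chaperone genes of the endoplasmic reticulum fell as a group, 14 of 18, with none higher and a median of -0.63. Hspa5 encodes BiP, the main chaperone there, Calr encodes calreticulin, and both are known targets of the unfolded protein response. Hspa5 stood at 931, 967 and 1012 TPM in the Dync2h1 knockout and at 1531, 1450.2 and 1515 TPM in wild type (-0.63). Calr stood at 365, 356 and 400.4 TPM in the Dync2h1 knockout and at 713, 706 and 718 TPM in wild type (-0.93, SE 0.09, adjusted p = 2.52e-06). Pdia4, a protein disulfide isomerase on chromosome 6, stood at 145, 149 and 146 TPM in the knockout and at 384, 341 and 345 TPM in wild type (-1.27). Creld2 stood at 63.1, 72.5 and 71.7 TPM in the knockout and at 138, 133 and 134 TPM in wild type (-0.96). The libraries of each group were close in these abundant genes. Dnajc3, a BiP cochaperone, changed by -1.06, and Edem1, a lectin of ER degradation on chromosome 6, by -1.09. With the shifted regions left out, 12 of 16 fell.

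The promoters of 3 members of that list are shown because they hold the ER stress response element, searched on both strands as CCAAT, 9 bases of any kind and CCACG. Its letters were found in 8 of the 16 members with a RefSeq window of 300 bases around the start, against 0.119% of all 32851 windows. Of these 8 members 6 fell (median -0.74), and of the 8 without it 7 fell (median -0.58). A match describes these letters only. The windows, on GRCm38.p6, are Hspa5 at chr2:34771840-34772139 on the plus strand, Creld2 at chr15:88819396-88819695 on the plus strand and Calr at chr8:84846882-84847181 on the minus strand, each read 5′ to 3′ along the gene with the match in capitals. In Creld2 and Calr the match lies on the opposite strand and is read here as its complement.
Hspa5: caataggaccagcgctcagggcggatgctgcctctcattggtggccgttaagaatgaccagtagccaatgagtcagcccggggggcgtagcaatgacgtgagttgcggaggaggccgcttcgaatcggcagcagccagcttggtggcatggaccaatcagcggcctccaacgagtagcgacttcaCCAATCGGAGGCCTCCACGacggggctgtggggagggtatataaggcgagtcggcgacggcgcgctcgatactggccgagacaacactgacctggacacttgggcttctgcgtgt
Creld2: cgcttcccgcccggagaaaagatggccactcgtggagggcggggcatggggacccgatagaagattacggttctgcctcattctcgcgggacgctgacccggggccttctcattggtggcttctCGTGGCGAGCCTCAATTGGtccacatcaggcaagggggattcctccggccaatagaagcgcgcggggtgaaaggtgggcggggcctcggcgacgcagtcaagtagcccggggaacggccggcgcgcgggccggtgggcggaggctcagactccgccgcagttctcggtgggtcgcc
Calr: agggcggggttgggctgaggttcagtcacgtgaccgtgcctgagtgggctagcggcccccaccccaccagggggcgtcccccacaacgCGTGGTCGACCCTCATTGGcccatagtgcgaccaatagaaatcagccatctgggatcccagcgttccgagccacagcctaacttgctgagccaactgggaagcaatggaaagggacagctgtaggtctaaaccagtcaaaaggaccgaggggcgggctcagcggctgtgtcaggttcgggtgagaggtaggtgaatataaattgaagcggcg

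Genes of ATF4 and the amino acid response rose, 14 of 19, and 1 fell (median 0.54). Atf4 itself, the transcription factor gene, stood at 244, 249.5 and 247 TPM in the Dync2h1 knockout and at 132, 141 and 137 TPM in wild type (0.85, SE 0.06, adjusted p = 9.62e-08). Trib3, a pseudokinase, stood at 26.8, 30.3 and 25.9 TPM in the knockout and at 6.49, 7.6 and 5.07 TPM in wild type (1.97). Chac1, which degrades glutathione, stood at 12.6, 14.7 and 11.3 TPM in the knockout and at 4, 4.94 and 4.37 TPM in wild type (1.35). These regulators rose together with enzymes of serine and glycine synthesis, Psat1 (189, 187 and 206 TPM in the knockout, 116, 113 and 113 TPM in wild type) and Shmt2 (0.65). No member fell without knockout replicate 2, knockout replicate 3 or wild-type replicate 1.

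Among 25 expressed interferon-stimulated genes, 11 rose and 2 fell, with a median of 0.49. Rsad2, the antiviral viperin gene, stood at 14.1, 10.7 and 9.46 TPM in the Dync2h1 knockout and at 0.912, 1.01 and 0.645 TPM in wild type (2.73, SE 0.28, adjusted p = 2.72e-06). Ifit1 stood at 10.9, 9.75 and 9.14 TPM in the knockout and at 2.53, 1.69 and 1.64 TPM in wild type (1.90), and Ifit3 at 65.6, 69.9 and 56.4 TPM in the knockout and 36.7, 35.4 and 35.2 TPM in wild type (0.82). Ifit1 encodes a protein that binds foreign RNA. Mx2, an antiviral GTPase, stood at 15.8, 9.21 and 7.82 TPM in the knockout and at 2.08, 2.43 and 2.04 TPM in wild type (1.85), and Oas3, a synthetase that responds to double-stranded RNA, at 8.54, 14.8 and 7.16 TPM in the knockout and 2.34, 1.19 and 3.16 TPM in wild type (1.78). The spread between knockout libraries was wider for Mx2 and Oas3 than for Ifit3. The 2 falls were 1 without knockout replicate 2, wild-type replicate 1 or wild-type replicate 2, none without knockout replicate 1 or wild-type replicate 3, and 1 with the deposited scaling or quantile normalisation.

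The promoters of Ifit1, Rsad2 and Oas3 are shown because they hold the core of the interferon response element, searched on both strands as GAAA, 2 bases of any kind and GAAA again. Its letters were found in 12 of 20 members with a window, against 3.44% of all 32851 windows. Of these 12, 6 rose and 1 fell (median 0.62), and of the 8 without it 2 rose and 1 fell (median 0.42). The windows on GRCm38.p6 are Ifit1 at chr19:34640639-34640938 on the plus strand, Rsad2 at chr12:26456403-26456702 on the minus strand and Oas3 at chr5:120777610-120777909 on the minus strand, each read along the gene with matches in capitals. In Ifit1, which has 2 matches, and in Rsad2 they lie on the opposite strand and read as the complement.
Ifit1: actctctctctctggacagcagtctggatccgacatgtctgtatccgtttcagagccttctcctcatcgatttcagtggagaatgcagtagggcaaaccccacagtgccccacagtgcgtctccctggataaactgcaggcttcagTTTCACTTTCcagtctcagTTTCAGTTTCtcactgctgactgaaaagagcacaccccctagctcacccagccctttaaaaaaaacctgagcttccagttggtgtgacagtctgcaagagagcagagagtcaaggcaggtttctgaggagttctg
Rsad2: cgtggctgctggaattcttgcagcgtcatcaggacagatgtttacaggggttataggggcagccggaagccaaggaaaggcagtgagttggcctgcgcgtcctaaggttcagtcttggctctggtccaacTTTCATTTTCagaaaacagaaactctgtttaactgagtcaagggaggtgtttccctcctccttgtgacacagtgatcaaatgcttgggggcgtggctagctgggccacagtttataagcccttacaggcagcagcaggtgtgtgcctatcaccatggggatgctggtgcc
Oas3: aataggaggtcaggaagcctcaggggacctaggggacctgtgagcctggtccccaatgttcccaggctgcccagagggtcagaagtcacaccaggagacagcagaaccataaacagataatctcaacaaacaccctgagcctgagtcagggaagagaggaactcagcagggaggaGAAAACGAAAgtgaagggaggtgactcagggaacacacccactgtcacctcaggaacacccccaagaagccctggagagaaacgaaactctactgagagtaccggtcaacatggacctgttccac

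Antigen presentation genes, with 13 expressed, held 3 rises and 1 fall. B2m, the light chain of class I molecules, stood at 173, 152 and 143 TPM in the Dync2h1 knockout and at 99.4, 104 and 116 TPM in wild type (0.55). H2-T23 changed by 0.78, though class I genes share much sequence and their values are uncertain, and Tapbp, the tapasin gene, changed by -0.33. Of 16 expressed NF-kB targets and chemokines, 8 rose and 2 fell (median 0.49). Cxcl16 stood at 81.3, 83.3 and 78.6 TPM in the knockout and at 38.4, 38.3 and 39.3 TPM in wild type (1.05), and Ccl2 at 18.8, 17.8 and 17.5 TPM in the knockout and 6.89, 4.07 and 5.93 TPM in wild type (1.54). Both are chemokine genes. Lcn2, a secreted siderophore-binding protein raised in injured tubules, stood at 52.2, 58.5 and 51 TPM in the knockout and at 15.4, 19.4 and 17.2 TPM in wild type (1.59), Lif, a cytokine, changed by 0.83, and Cxcl5, a chemokine gene on chromosome 5, by -1.05.

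ERK feedback and target genes rose in 10 of 17 expressed members and none fell (median 0.66). Etv4, an ETS factor induced by ERK, stood at 36.9, 27.8 and 31 TPM in the Dync2h1 knockout and at 6.41, 5.43 and 5.85 TPM in wild type (2.25, SE 0.12, adjusted p = 2.08e-09). Dusp6, a phosphatase that switches ERK off, stood at 81.6, 79.8 and 76.2 TPM in the knockout and at 24.5, 22.2 and 24 TPM in wild type (1.71), and Dusp5, a related nuclear phosphatase, at 24.7, 28.1 and 29.8 TPM in the knockout and 11.8, 12.7 and 13.1 TPM in wild type (1.07). Feedback phosphatases and the growth target Ccnd1 were thus higher together, with Ier3 (0.99). In the EGF receptor family, 2 of 12 expressed genes rose and 1 fell, or 2 fell without wild-type replicate 3, and with the shifted regions left out 1 of 8 rose and none fell. The ligand gene Hbegf stood at 72.9, 73.2 and 74.3 TPM in the knockout and at 52, 47.7 and 51.5 TPM in wild type (0.53), and the ligand gene Areg at 4.24, 3.6 and 2.4 TPM in the knockout and 0, 0.106 and 0.176 TPM in wild type (1.99). Lrig1, which promotes removal of the receptor, on chromosome 6, was lower, at 67.3, 83.9 and 73 TPM in the knockout and 192, 180.1 and 189.8 TPM in wild type (-1.32).

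Of 20 YAP targets and pathway genes, 7 rose and 6 fell (median 0.05). The matricellular targets rose, Ctgf to 310.0, 349.6 and 368 TPM in the Dync2h1 knockout, against 68.7, 79.6 and 94 TPM in wild type (2.08), and Cyr61 to 372, 431 and 408 TPM in the knockout, against 203, 224 and 240.1 TPM in wild type (0.86). F3, the tissue factor gene, changed by 0.71. Yap1 itself, which lies near Dync2h1 on chromosome 9, was lower, at 21.9, 18.6 and 22.6 TPM in the knockout and 39, 45.4 and 45.2 TPM in wild type (-1.01), as was Ptpn14 on chromosome 1, an inhibitor of YAP (-1.12). With the shifted regions left out, 7 of 17 rose and 3 fell. Of 22 expressed SRF targets and actin genes, 5 rose and 4 fell, and 2 fell after each chromosome's own median had been taken out or with the shifted regions left out. Actg1, a cytoplasmic actin, stood at 1044, 1142 and 1083 TPM in the knockout and at 668, 713 and 707 TPM in wild type (0.65), while Acta2 and Tagln, smooth muscle genes, were lower.

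Of 16 expressed heat shock genes, 6 rose and 2 fell (median 0.15), or 1 fell without knockout replicate 2, and with the shifted regions left out 5 of 11 rose and none fell. Hsp90aa1 stood at 963, 966 and 961 TPM in the Dync2h1 knockout and at 620.2, 637 and 635 TPM in wild type (0.61), and Hspb1, on chromosome 5, at 727, 793 and 679.7 TPM in the knockout and 412, 438 and 427 TPM in wild type (0.78). Hspa1b changed by 0.82, with a near-identical copy beside it that makes its value uncertain. Hspb8, a small heat shock protein gene on chromosome 5, was lower, at 4.07, 4.54 and 4.05 TPM in the knockout and 25.7, 24.7 and 25.7 TPM in wild type (-2.34). Of 22 expressed NRF2 targets, 2 rose and 4 fell, with Abcc1 (0.55) and Hmox1 (0.51) higher and Gsta4 (-1.87), Cbr3 (-0.90) and Ephx1 on chromosome 1 (-0.88) lower. Of 20 expressed p53 targets, 7 rose and 2 fell (median 0.22), with Aen, a nuclease (1.10), Ccng1 (0.59) and Pmaip1 (0.54) higher and Sesn1 (-0.85) lower.

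In the cell cycle, Ccnd1 stood apart from its list, in which 2 of 20 expressed G1 genes rose and 3 fell. Cdkn1c, an imprinted inhibitor of cyclin-dependent kinases, changed by 0.66, and the inhibitor genes Cdkn2c (-0.78) and Cdkn2d (-0.63) and the pocket protein gene Rbl2 (-0.51) were lower. Of 25 S phase genes, 2 rose and 11 fell (median -0.24), and 7 of the falls were among the 8 members in the shifted regions. Mcm6, a subunit of the replicative helicase on chromosome 1, stood at 325, 319 and 339 TPM in the Dync2h1 knockout and at 532, 489 and 525 TPM in wild type (-0.65), and Pold1, a polymerase gene on chromosome 7, stood at 86.7, 79.4 and 86.1 TPM in the knockout and at 119, 112 and 109 TPM in wild type (-0.43). With the shifted regions left out, 4 of 17 S phase genes fell and 2 rose (median -0.08). Without knockout replicate 3 or wild-type replicate 2, and with the deposited scaling, 1 or none of the 2 rises was left. Of 25 mitosis genes, 1 rose and 5 fell, between 2 and 3 fell without knockout replicate 2 or 3 or wild-type replicate 1 or 3, and 8 fell with quantile normalisation. The rise was lost without any one library other than knockout replicate 2. Mad2l1, a spindle checkpoint gene on chromosome 6 (-0.77), and Cenpf, a kinetochore gene on chromosome 1 (-0.75), led the falls.

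Of 26 ribosomal protein genes, 11 rose (median 0.30), with 7 left without knockout replicate 3 or wild-type replicate 2 and 1 fall with the deposited scaling or quantile normalisation. Rpl13 stood at 599.5, 635 and 621 TPM in the Dync2h1 knockout and at 334, 299 and 388 TPM in wild type (0.87). Many ribosomal genes have processed copies elsewhere in the genome, so their values are uncertain, and the knockout libraries ranged widely for Rpl10 (40.8, 109 and 104 TPM in the knockout, 22.9, 19 and 34 TPM in wild type). Of 24 nuclear respiratory chain genes, 1 rose and 5 fell. Ndufs1, a complex I gene on chromosome 1, was among those that fell (-0.75), and 1 of 18 fell with the shifted regions left out, where the median turned to 0.01 against -0.14. The falls were 3 without wild-type replicate 3, and the rises 2 without knockout replicate 1. None of 18 replication-dependent histone genes passed in static culture.

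The labelled cell type was read from its markers. Of 15 principal cell markers of the collecting duct, 1 was expressed at 1 TPM or more in 3 libraries, and the water channel gene Aqp2 was at 0 to 0.03 TPM in all 6. Of 20 genes of kidney epithelial identity, 13 were expressed, and 4 rose and 1 fell. Spp1, the osteopontin gene, on chromosome 5, stood at 313, 321 and 284 TPM in the Dync2h1 knockout and at 238, 235 and 229 TPM in wild type (0.38). The cells thus expressed general epithelial genes in both groups, while the defining transcripts of mature principal cells were absent or low in both. Intercalated cell markers had 2 of 12 expressed, proximal tubule markers 5 of 16, among them Cubn and Lrp2, and thick limb and distal markers 4 of 12, where Trpm6, a magnesium channel gene, changed by -0.64. The urothelial genes Upk3b (1.05) and Krt20 (0.68) were higher, at a few TPM. Among 16 expressed solute carrier and regulator genes of the collecting duct, 2 rose and 5 fell, and 3 fell after each chromosome's own median had been taken out. With the shifted regions left out, 2 of 11 rose and 2 fell. Sgk1, the kinase that raises sodium uptake, stood at 7.23, 6.67 and 7.11 TPM in the knockout and at 15.8, 10.6 and 12.7 TPM in wild type (-0.79), and Nedd4l, the ubiquitin ligase it inhibits, changed by -0.75, while Slc4a7, a bicarbonate transporter, changed by 0.59.

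Markers of other cell types were read as summed deposited TPM. The fibroblast and smooth muscle list summed to 3.03 to 4.02 TPM in the Dync2h1 knockout and to 32.7 to 39.1 TPM in wild type, and the 4 of its 15 members that were expressed fell, namely Acta2, Tagln, Postn (-1.57) and Col1a1. Col1a1, a chain of collagen I, was at 0.877, 0.303 and 0.492 TPM in the knockout and 2.53, 2.32 and 1.14 TPM in wild type, and its call was lost when any one of knockout replicates 2 and 3 and wild-type replicates 1 and 2 was left out (adjusted p = 0.0799 to 0.118), and with no filter (0.0654) or a pseudocount of 5 (0.0575). Pdgfra, Col1a2 and Lum of the same list were at or near 0 in both groups. The mesenchymal falls above moved with this list, and its part in them was not tested. The podocyte and neuron list summed to 13.0 to 18.1 TPM in the knockout and to 31.6 to 38.2 TPM in wild type. Of its 10 members 4 were expressed, of which 1 rose and 3 fell. Among those that fell, Tubb3, a tubulin gene, was at 1.91, 1.23 and 1.09 TPM in the knockout and 14.6, 15.7 and 15.4 TPM in wild type. Endothelial markers summed to 21.6 to 23.5 TPM in the knockout and 19.8 to 24.1 TPM in wild type, with Flt1 on chromosome 5 lower (-0.97), and leukocyte markers to 14.3 to 19.7 TPM in the knockout and 13.3 to 15.9 TPM in wild type.

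HOX genes, which mark position along the body axis, and imprinted genes differed too. Of 17 expressed HOX genes, 2 rose and 9 fell (median -0.40), with Hoxd8 nearly lost and Hoxd4 at 0.0634, 0 and 0.065 TPM in the Dync2h1 knockout and 4.11, 2.78 and 1.68 TPM in wild type. Hoxa10, on chromosome 6, changed by -0.70. With the shifted regions left out 3 of 10 fell and 1 rose, 4 fell after each chromosome's own median had been taken out, 5 fell without knockout replicate 1 or wild-type replicate 1, and the rises were 1 or none without any one library. Of 14 expressed imprinted genes, 2 rose and 6 fell (median -0.46). H19, a maternally expressed noncoding RNA, stood at 6.05, 8.1 and 8.33 TPM in the knockout and at 42.7, 44.5 and 40.7 TPM in wild type (-2.37, SE 0.15, adjusted p = 1.29e-08), and Peg3, a paternally expressed zinc finger gene, at 6.58, 5.04 and 6.54 TPM in the knockout and 16.7, 14.4 and 18.2 TPM in wild type (-1.31). Phlda2, a maternally expressed gene, was higher, at 4.05, 4.73 and 5.54 TPM in the knockout and 0.954, 1.04 and 0.811 TPM in wild type (1.57). All 4 expressed Y genes of the list read fell, among them Kdm5d, at 63.4, 62.4 and 66.7 TPM in the knockout and 113, 107 and 105 TPM in wild type (-0.74). Eif2s3y changed least of the 4 (-0.34), and its call was lost without wild-type replicate 1 (adjusted p = 0.0568), without wild-type replicate 2 (0.0575) and with no filter on low values (0.0654).

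The falls were concentrated on a few chromosomes. For each library, the median over the genes of a chromosome was taken of the log2 difference from the wild-type mean, over genes whose mean reached 5 TPM. On chromosome 1 (682 genes) it was -0.364, -0.393 and -0.385 in the Dync2h1 knockout libraries and 0.01, -0.005 and 0 in the wild-type libraries, and 328 genes fell while 62 rose. On chromosome 6 (551 genes) it was -0.370, -0.366 and -0.354 in the knockout and within 0.012 of 0 in wild type, and 266 genes fell while 62 rose. On chromosome 5 (778 genes) it was -0.206, -0.206 and -0.193 in the knockout and within 0.003 of 0 in wild type, with 258 falls and 91 rises. These medians were nearly the same in all knockout libraries. On chromosome 15 (421 genes) the median was higher, at 0.144, 0.130 and 0.147 in the knockout, with 129 rises and 46 falls. On the Y chromosome, with 5 genes, it was -0.759, -0.783 and -0.688 in the knockout. Each of these 5 differences had p = 0.1 in an exact two-sided permutation test, the smallest that 3 against 3 libraries can give. The same p was reached by other chromosomes with far smaller differences, chromosome 2 (0.052) among them, so it does not set these 5 apart.

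**Figure D3:**
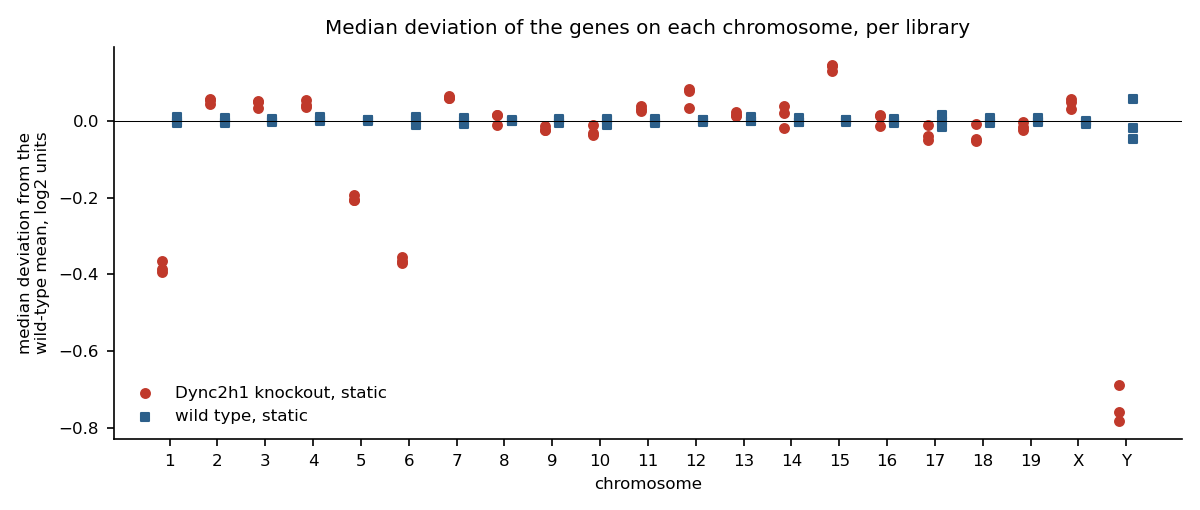
Median log2 difference from the wild-type mean over the genes of each chromosome, one point per library, Dync2h1 knockout and wild type in static culture, n = 3 each. Chromosomes 1, 5, 6 and Y lie below 0 in all knockout libraries and chromosome 15 above, with wild-type libraries near 0.

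Chromosomes 1, 5 and 6 and the first 20 Mb of chromosome 9, called the shifted regions here after their values were seen, hold 2050 of the 11369 genes that reached this mean and have a known position. They hold 46.3% of the genes that fell. Within them 42.6% of the genes fell and 10.6% rose, and elsewhere 10.8% fell and 16.9% rose. Within chromosome 6 the shift did not reach the far end, where the 10 Mb windows from 130 Mb had medians of 0.206 and 0.294. Of 211 such windows with at least 20 genes, 22 had a median of -0.3 or less, 21 of them in the shifted regions. The other was on chromosome 15, from 100 to 110 Mb, with a median of -0.344 over 42 genes, 17 of which fell and 5 rose. A median of 0.15 or more was found in 6 of the 211 windows, all on chromosome 15 or at the far end of chromosome 6. Chromosome 15 is not among the shifted regions, so leaving those out does not remove its rises. Copy number was not measured in these files, and its part in these shifts was not tested.

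Genes close to Dync2h1 were lower in the same cells. Of 22 other protein-coding genes that start in the first 15 Mb of chromosome 9 and whose mean reached 5 TPM, 19 fell and none rose, with a median of -0.99. Between 15 and 16 Mb, Slc36a4 fell (-1.01), Taf1d rose (0.42), and Med17 (0.22), Cep295 (0.22) and 4931406C07Rik (-0.03) did not pass. Of the 49 that start between 16 and 25 Mb, 4 fell and 5 rose, with a median of -0.02. The genes named here were picked after their values were seen. Yap1, -1.01, belongs to the first stretch, as do Dcun1d5, -1.11, Birc2, an inhibitor of apoptosis, -1.01, Mre11a, a DNA repair nuclease gene, -0.87, and Amotl1, -0.56. Casp12, an inflammatory caspase gene, stood at 0.433, 0.111 and 0.232 TPM in the Dync2h1 knockout and at 16.5, 13.1 and 15.9 TPM in wild type. Birc3 (-0.26) and Pdgfd (-0.06) in the same stretch did not pass. Under flow 19 of the 22 fell (median -0.92), and in the Ift140 knockout against the same wild-type libraries none fell (median -0.09).

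**Figure D4:**
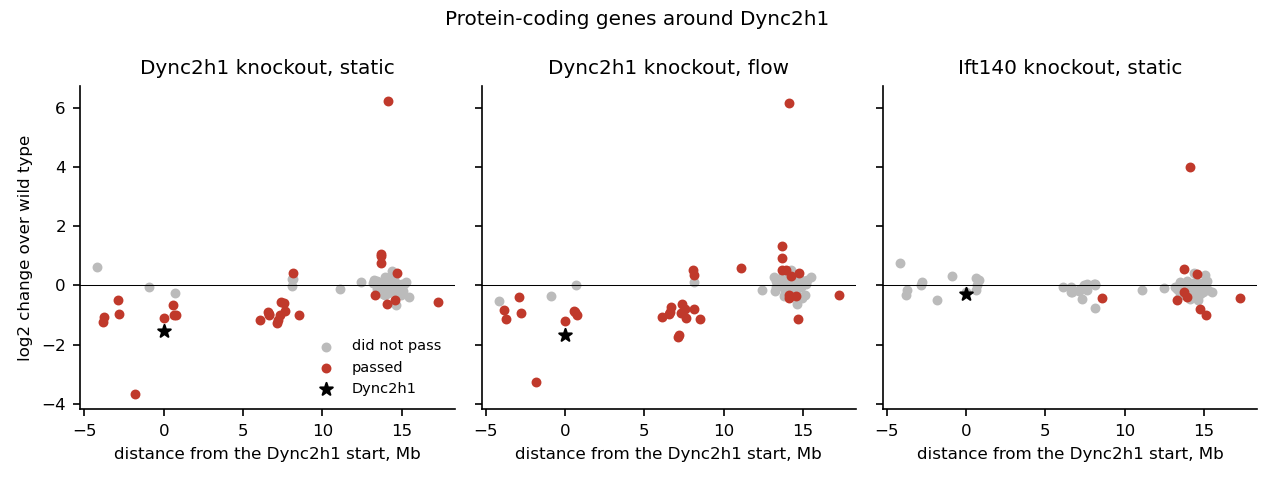
Log2 change over wild type of 77 protein-coding genes within 20 Mb of Dync2h1 (star), by distance from its start in Mb, in 3 panels for the Dync2h1 knockout in static culture, the Dync2h1 knockout under flow and the Ift140 knockout in static culture. In both Dync2h1 knockout panels most genes up to about 8 Mb away lie near -1, and in the Ift140 knockout panel they lie near 0. The high point in each panel is Ap1m2.

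The same genotypes were compared under flow with 6 other libraries, so the group means of the 2 comparisons share no library. Both take the spread of a gene from the same fit over all 18 libraries, so their calls are not independent. Under flow 2659 genes rose and 2339 fell (17.3% and 15.2%, or 32.5% together), a split that becomes 1498 rises and 2921 falls when the deposited scaling is kept. Of the genes that rose in static culture 71.7% also rose under flow, and these were 61.0% of those that rose there. Of the genes that fell in static culture 69.4% also fell under flow, and these were 69.1% of those that fell there. Only 19 genes passed in opposite directions. Dync2h1 changed by -1.69 under flow, Ap1m2 by 6.17, Cubn by -6.37 and Vim by -5.89, close to their static values. The chromosome medians of the knockout less wild type under flow were -0.367 for chromosome 1, -0.323 for chromosome 6 and -0.157 for chromosome 5.

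The difference of the genotype effect between static culture and flow passed for 77 genes, or 0.501%, in the fit over all libraries, 50 with a higher value in static culture and 27 with a lower one. At an unadjusted p under 0.05 there were 1551. The count was 154 when replicate 3 of the Ift140 knockout under flow was left out, and leaving out 1 of the 12 libraries compared gave 38 to 55, with 38 without Dync2h1 knockout static replicate 3, 42 without wild-type static replicate 1, 43 without wild-type static replicate 2, 48 and 49 without Dync2h1 knockout flow replicates 2 and 1, and 50 or 51 without Dync2h1 knockout static replicates 1 and 2, wild-type static replicate 3 and wild-type flow replicate 2. The share of positive differences, 64.9%, was 82.8% with the deposited scaling and 75% with quantile normalisation, and 53.5% with a pseudocount of 5 and 51.9% without replicate 3 of the Ift140 knockout under flow. Dusp6 stood at 81.6, 79.8 and 76.2 TPM in the static knockout and 24.5, 22.2 and 24 TPM in static wild type, and at 179, 172 and 167 TPM in the knockout under flow and 223, 191 and 167 TPM in wild type under flow. It was thus higher in the knockout in static culture (1.71) and not under flow (-0.16), a difference of 1.86 (adjusted p = 3.13e-06). Ctgf changed by 2.08 in static culture and by 0.57 under flow (difference 1.51), and Chac1 by 1.35 and 0.01 (difference 1.34). Lfng, lower in both, changed by -1.23 in static culture and -2.98 under flow. In the other direction, Ccl20, a chemokine gene, changed by 0.93 in static culture and 2.91 under flow (difference -1.98), Rrad by -0.21, which of the settings run passed only with library weights, and 1.51, and Tsc22d1 fell in static culture (-0.41) and rose under flow (0.62).

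**Figure D5:**
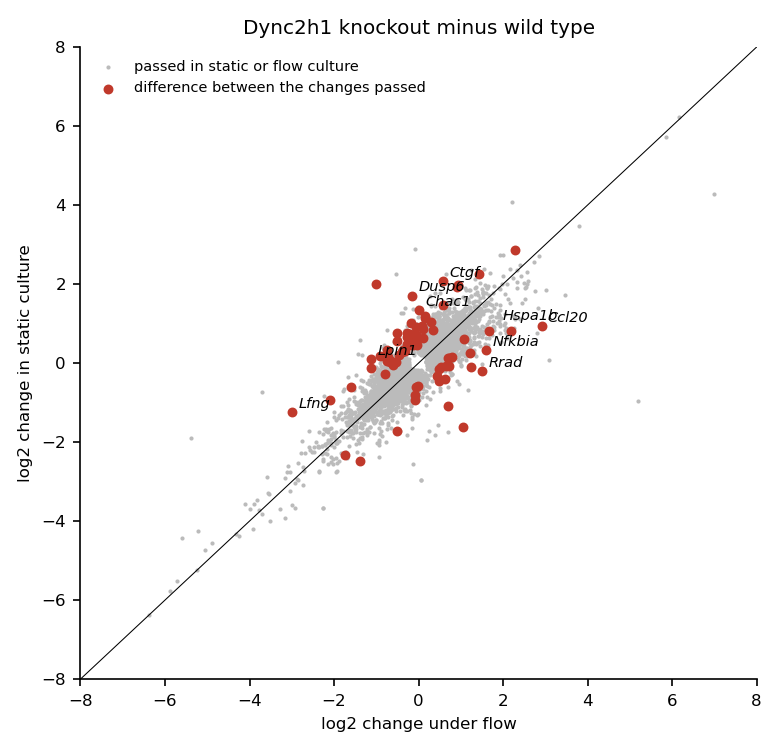
Log2 change, Dync2h1 knockout minus wild type, under flow (horizontal axis) and in static culture (vertical axis) for 6332 genes that passed in either, with the line of equal change. Larger points mark the 77 genes whose difference between the changes passed, and Dusp6 and Ctgf lie above the line and Ccl20 and Rrad below it.

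The Ift140 knockout line was compared with the same wild-type libraries, so its values are set beside those of the Dync2h1 knockout without a test of their overlap. Against wild type 1543 genes rose and 1509 fell in the Ift140 knockout, which is 10.0% and 9.82%, or 19.9% together. Cubn stood at 2.28, 3.53 and 4.05 TPM in the Ift140 knockout and changed by -6.60 there and by -6.37 in the Dync2h1 knockout. Ank2 changed by -4.94 in the Ift140 knockout, Grb10 by -4.71, Twist1 by -2.55 and Ap1m2 by 3.99, each in the direction seen in the Dync2h1 knockout. Vim, Igfbp2 and collagen IV were at higher levels in the Ift140 knockout than in the Dync2h1 knockout. In the Ift140 knockout Vim stood at 211, 186 and 185 TPM, Igfbp2 at 88.5, 89 and 89.7 TPM and Col4a1 at 118, 102 and 116 TPM. Against wild type, Vim was lower in the Ift140 knockout too, though far less so (-0.48, adjusted p = 0.00751). Glycolysis genes held 11 rises and no fall among 20 in the Ift140 knockout, and ERK genes 10 rises and no fall among 17. ER chaperones held 1 rise and 2 falls among 18 there, and interferon-stimulated genes 1 rise and 12 falls among 25. The medians of all 7 cilium lists were below 0 in the Ift140 knockout too, from -0.04 for dynein-2 subunits to -0.41 for IFT-A. In IFT-A 4 of 7 genes fell there and in the transition zone 6 of 23, and 1 gene of the ciliary membrane and tip list rose. The median of chromosome 17 was 0.355 higher in the Ift140 knockout than in wild type, that of chromosome 15 was 0.097 higher, and those of chromosomes 1, 5 and 6 were within 0.052 of 0. The median of the Y chromosome was lower there too, by -0.65.

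Set directly against the Ift140 knockout in static culture, the Dync2h1 knockout had 1770 genes higher and 2058 lower, which is 11.5% and 13.4%, or 24.9% together, and 1274 of 3337 were higher with the deposited scaling. Vim stood at 3.35, 4.76 and 3.92 TPM in the Dync2h1 knockout and at 211, 186 and 185 TPM in the Ift140 knockout, a difference of -5.29 (adjusted p = 4.68e-14). Igfbp2 differed by -6.20, Col4a2 by -5.59, Enpep by -4.14 and Acta2 by -4.03. Cubn was low in both and did not differ past the threshold (0.23, SE 0.16, adjusted p = 0.317). Of the interferon-stimulated genes 20 of 25 were higher in the Dync2h1 knockout than in the Ift140 knockout and none lower, with Ifi44 at 13.3, 21.7 and 11.4 TPM in the Dync2h1 knockout and 0.948, 0.108 and 0.071 TPM in the Ift140 knockout, and Ccl2 at 18.8, 17.8 and 17.5 TPM in the Dync2h1 knockout and 0.897, 0.638 and 0.568 TPM in the Ift140 knockout. Serpinh1 differed by 5.76, being at 0.163, 0.108 and 0.124 TPM in the Ift140 knockout. Nqo1, a quinone reductase gene, differed by 3.28 and Usp11 by 3.21, genes that did not pass between the Dync2h1 knockout and wild type. ER chaperones were lower in the Dync2h1 knockout in 12 of 18 members, and epithelial regulators higher in 12 of 20 and lower in 2.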

How the data were processed

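RNA of 18 IMCD3 libraries was deposited by the authors as 1 table per library of TPM, made per the submitters' processing notes with Bowtie2 2.1.0 and RSEM 1.2.31 after FastQC 0.11.5, with the builds mm10 and GRCm38.p5 named. The annotation release and settings are not given in the sources used here. A row named total was dropped. TPM keep no depth, so precision rests on the spread between 3 libraries a group, pooled over all 6 groups. The pooled spread has 12 residual degrees of freedom. TPM were scaled between libraries by an unweighted trimmed mean of ratios, and log2(scaled TPM + 1) was fitted with limma 3.58.1 in R 4.3.3 over all 18 libraries with 6 group means and a trended prior. P-values were adjusted by Benjamini-Hochberg over 15374 genes, and every adjusted p in the text is from limma. Positions are from GENCODE vM21 on GRCm38, matched by name for 47220 names as given and 452 by an older symbol, and promoters are from RefSeq. Tested on simulated data with the layout of all 18 libraries, the fit recovered 52.2% of 67 genes changed 1.5-fold, 85.1% of 67 changed 2-fold and 97% of 66 changed 4-fold. It called 9 unchanged genes. The changed genes were drawn only from those above 5 TPM in static wild type, and the noise was normally distributed. Far fewer genes were changed than passed in the data, so these shares need not hold for the data. The members, lists and alternatives were chosen with earlier results of these data known. The rule for named genes took the 15 largest rises and 15 largest falls that passed without overlap between groups at a mean of at least 5 TPM, from every list the 5 passing genes whose p was lowest, and the 6 largest differences in each direction against the Ift140 knockout and against flow. A few genes that the rule took are not reported here.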

Additional observations from a re-analysis of the deposited data

Results flagged for a closer look

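The results given here are genes whose effect of the Dync2h1 knockout differed between static culture and flow in the fit with an interaction term (limma, adjusted p under 0.05). The value is the log2 change in static culture minus that under flow, and no cause was tested. It was positive for Dusp6 (1.86), Lfng (1.75), Ctgf (1.51), Chac1 (1.34), Kctd11 (1.27), Lpin1 (1.22), Egln3 (1.14), Trib3 (1.04), Plau (1.02), Bmp2 (0.99) and Krt17 (0.98). It was smaller and positive for Etv4 (0.82), Cldn3 (0.78), Cyr61 (0.75), Sqle (0.68), Fhl2 (0.65), Ccnd1 (0.57), Actg1 (0.55) and Atf4 (0.51). It was negative for Hsp90aa1 (-0.46), Adamts1 (-0.58), Hspb8 (-0.6), Ifit3 (-0.86), Hspe1 (-0.93), Tsc22d1 (-1.03), Nfkbia (-1.28), Hspa1b (-1.37), Rrad (-1.72) and Ccl20 (-1.98).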

How the results depend on the processing

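The number of genes that passed in static culture, 4591, was 4061 with the deposited scaling, 4736 with quantile normalisation, 4359 with no filter, 6178 with library weights, 5413 with only the 6 libraries compared, 5388 without replicate 3 of the Ift140 knockout under flow, 3964 with at least 5 TPM, 3500 with protein-coding genes only and 3592 to 3897 when 1 library was left out, all in limma. It was 2988 at an adjusted p under 0.01 and 2258 with at least a 1.5-fold change. With the replicate block it was 4950 over the 6 libraries and 4413 over all 18. Deviations of same-numbered libraries correlated at 0.075, -0.029 and 0.022, so no pairing by number was seen. The labels do not say what a number shares, and with 3 libraries a group these values cannot exclude a pairing. Chosen after seeing the data, leaving out the shifted regions gave 3174 genes, and taking out each chromosome's own median gave 4188. With the shifted regions left out, falls were 5 of 18 in the G1 list, 6 of 16 in fatty acid synthesis and none of 11 in kidney identity, and 1 each in the p53, NF-kB and cholesterol lists. The 77 genes whose effect differed between static culture and flow became 154 without replicate 3 of the Ift140 knockout under flow, 53 with the replicate block, and 38 to 55 with 1 library left out. The 34 genes near 0 in 1 group became 22 with limits of 1 and 10 TPM and 46 with limits of 0.1 and 1 TPM, where those near 0 in wild type were 13 in place of 5. The cause of these moves was not tested. Depth is unknown, so low genes carry the most uncertainty.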

Other observations

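The names AC099934.2 and AC157822.2 hold the same values in all libraries shown here. Both are listed at 0 in all Dync2h1 knockout libraries in static culture, and at 3972, 2076.5 and 871 TPM in the wild-type libraries. Under flow they are at 0 in the knockout and at 912, 0 and 0 TPM in wild type, so 2 of the wild-type libraries under flow are also listed at 0.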
